A study of Mus musculus with 9 samples.

Results

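The normal mouse hippocampus was described from the 3 non-transgenic (nTg) libraries of a series of 9 RNA sequencing libraries. The 3 were taken by their titles, which carry nTg, and their genotype is labelled WT. Libraries nTg_24w_1 and nTg_24w_3 came from hippocampus at 24 weeks of age and nTg_15w_2 from hippocampus at 15 weeks. The other 6 libraries are from hAPP-J20 mice, which carry a mutant human amyloid precursor protein transgene, at the same ages; they were not used here and no contrast with them was made. Strain and sex are not in the labels, the labels call the libraries biological replicates without saying that each came from its own animal, and the batch label follows the age, so that effects of batch and of age cannot be told apart. With 2 libraries at 24 weeks and 1 at 15 weeks, the ages were not compared either.

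The hippocampus holds glutamatergic pyramidal cells of the CA fields and granule cells of the dentate gyrus, a minority of GABA interneurons, and astrocytes, oligodendrocytes, microglia and vessels. Its excitatory synapses are known for long-term changes in strength that depend on NMDA receptors, AMPA receptor traffic and calcium-calmodulin kinases. Choroid plexus, the epithelium that secretes cerebrospinal fluid, and the neighbouring cortex and thalamus can enter a dissection.

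Levels are in TPM, reads per exonic base scaled to a common sum over all genes of a library, so that levels of different genes can be set side by side. Where 3 values are given for a gene they are those of nTg_24w_1, nTg_24w_3 and nTg_15w_2 in this order, and a mean stands with the SD over the 3 libraries. The libraries held 16110279, 16089966 and 20126802 counts, so that 1 count in a gene of 2000 exonic bases stood for 0.0711, 0.0661 and 0.0545 TPM. No p-value is given, since an exact two-sided sign-flip permutation test over 3 libraries cannot go below p = 0.25; an order of genes is described by the number of libraries that show it.

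Markers of the labelled tissue were present in every library. Of 12 genes each for hippocampal pyramidal cells, dentate granule cells, astrocytes, oligodendrocytes and microglia, all 12 stood at 1 TPM or more in all 3 libraries, as did 11 of 12 for CA2 and CA3 pyramidal cells. Among markers of the tissue were the pyramidal cell transcription factor Neurod6 (237, 180.1 and 198 TPM), the granule cell transcription factor Prox1 (20.4, 20.3 and 21.2 TPM), the CA2 signalling regulator Rgs14 (53.1, 50.8 and 50.7 TPM), the astrocyte filament Gfap (247, 130.1 and 148 TPM), the myelin protein Mbp (972, 754 and 709 TPM) and the microglial receptor Cx3cr1 (19.7, 15.2 and 16.9 TPM). Of 10 hypothalamic markers 1 reached 1 TPM in all libraries, whereas 9 of 10 striatal, 6 of 8 thalamic and all 10 neocortical markers did, with medians of 3.86, 5.17 and 19.1 TPM. The medians were 91.0 TPM for pyramidal cells, 9.42 TPM for granule cells and 21.1 TPM for CA2 and CA3 cells. A limit of 1 TPM thus does not tell the labelled tissue from its neighbours. The 12 choroid plexus markers summed to 12601, 11790 and 9159 TPM, mostly Ttr, the thyroid hormone carrier transthyretin, and the 5 blood markers to 612, 862 and 472 TPM. In bulk tissue, fewer cells of a type and less RNA per cell cannot be told apart.

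The libraries differed among themselves in ways the labels do not give. The Y-linked helicase gene Ddx3y stood at 17.3, 0 and 21.96 TPM, and Xist, the RNA that coats the silenced X chromosome in female cells, at 0.943, 7.85 and 0.0182 TPM. Of the 4 Y-linked genes followed, Ddx3y, Eif2s3y, Kdm5d and Uty, none had a read in nTg_24w_3, where Xist was highest, and Xist was lowest in nTg_15w_2. In nTg_24w_1 Xist and the 4 genes were all counted, and whether it held RNA of 1 animal only is not known. Over 15808 genes with a mean of 1 TPM or more, Spearman's rho across genes was 0.951 between nTg_24w_1 and nTg_24w_3, 0.967 between nTg_24w_1 and nTg_15w_2 and 0.970 between nTg_24w_3 and nTg_15w_2; genes are not independent, and these values are descriptions. Library nTg_24w_1 stood apart the most. Of 9515 genes with a mean of 5 TPM or more, a symbol and no predicted name, 232 were over 1.5 times above and 157 over 1.5 times below both other libraries in nTg_24w_1, against 59 and 42 in nTg_24w_3 and 15 and 38 in nTg_15w_2. The median protein-coding gene was 0.13 higher on the log2 scale in nTg_24w_1 than in nTg_24w_3 and 0.08 higher than in nTg_15w_2.

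Of 55536 listed genes, 14133 stood at 1 TPM or more in all 3 libraries, among them 12498 of 22028 protein-coding genes, and 25425 were at 0 in all 3. Taken singly, the libraries held 15540, 16451 and 15575 genes at 1 TPM or more. At 10 TPM or more in all libraries there were 6832 genes, at 100 TPM 862 genes and at 1000 TPM 41 genes. The distribution was steep: the highest gene held 15.0 ± 2.12% of all TPM (SD, n = 3), the 10 highest 43.3 ± 1.07%, the 100 highest 57.0 ± 1.265% and the 1000 highest 76.8 ± 0.874%. Ranked by mean TPM, 28 genes held 50% of the sum.

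**Figure D1:**
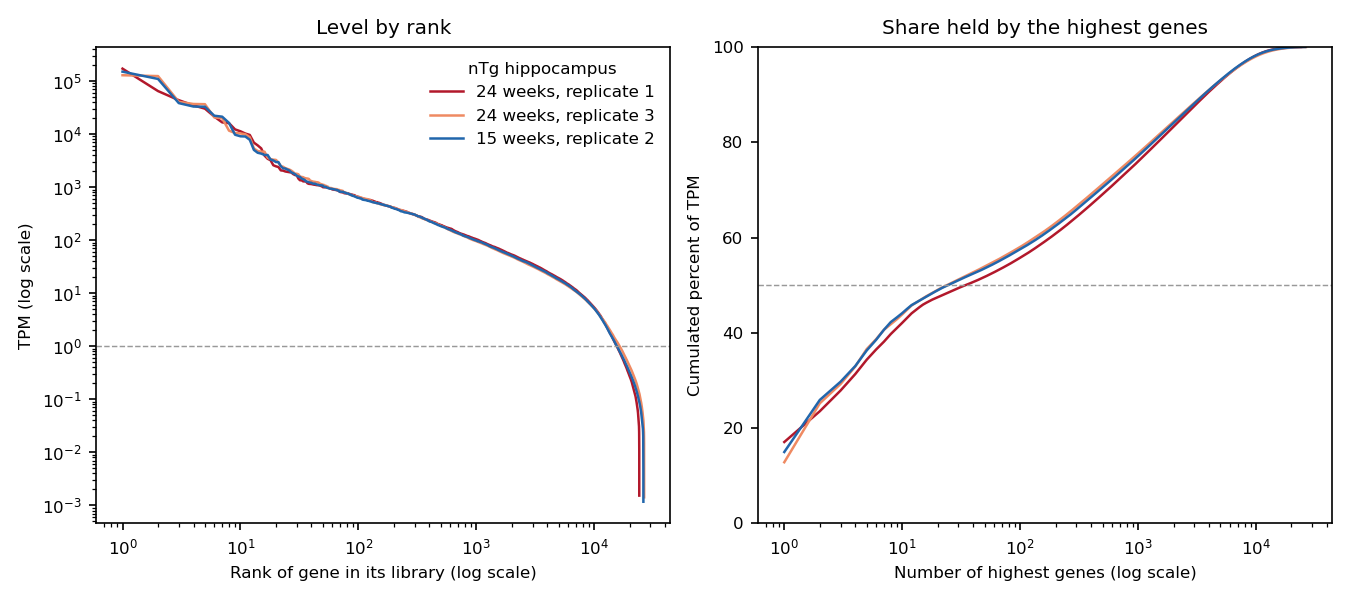
TPM of each gene against its rank in its own library, both axes on a log scale (left), and the cumulated percent of TPM against the number of highest genes on a log scale (right), with a line for each of the 3 nTg libraries. The dashed lines mark 1 TPM and 50% of the sum, and the 10 highest genes held between 42.1% and 44.1%.

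The 2 highest entries were genes with a short annotated exon, and counts over it do not give the length of the RNA that was read. Gm23935, annotated as a miRNA gene of 57 bases, stood at 170797, 128332 and 149809 TPM, from 68440, 55320 and 78310 counts. Its annotated sequence occurs in 3 genes: Gm24270 on chromosome 9 (6114, 3287 and 4276 TPM) and Gm24245 on chromosome 4 (0, 0 and 1.91 TPM) carry the same 57 bases, so the counts of the 3 copies cannot be assigned to a locus. Bc1, the brain cytoplasmic RNA that is carried into dendrites of rodent neurons, stood at 64568, 123695 and 109284 TPM, lowest in nTg_24w_1. Both sequences are shown because they held 24.9 ± 1.22% of all TPM between them; the capitals in Bc1 mark its longest run of A, 23 bases at positions 77 to 99. Bc1 lies at chr7:144914470-144914637 and Gm23935 at chr16:11144125-11144181, both on the plus strand of GRCm38, with sequences from GENCODE M21.
Bc1: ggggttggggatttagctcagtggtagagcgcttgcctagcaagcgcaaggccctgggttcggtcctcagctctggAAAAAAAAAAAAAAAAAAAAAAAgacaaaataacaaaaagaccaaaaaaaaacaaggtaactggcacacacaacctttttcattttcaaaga
Gm23935: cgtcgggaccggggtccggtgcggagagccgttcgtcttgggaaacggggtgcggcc

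Mitochondrial genes followed. mt-Co1, the catalytic subunit of cytochrome oxidase, stood at 43476, 40464 and 38284 TPM, mt-Cytb, the cytochrome b of complex III, at 34634, 36860.5 and 32967 TPM, and mt-Nd1, a subunit of complex I, at 30085, 36526 and 32679.7 TPM. The mitochondrial ribosomal RNAs mt-Rnr2 and mt-Rnr1 stood at 16589, 20589 and 21235 TPM and 16040.1, 19927 and 22147 TPM, each lowest in nTg_24w_1. An rRNA gene on chromosome 17 with no symbol, ENSMUSG00000106106, had 21313, 10456 and 16202 TPM, and 73.9% of its exonic bases lie under another gene. mt-Nd2, mt-Nd4, mt-Nd6 and mt-Nd5 came at ranks 10 to 13, with means between 5327 and 10076 TPM. The remaining entries among the 20 highest were Gm24270 and the mitochondrial tRNA genes mt-Tp (3206, 5364 and 5022 TPM) and mt-Tc (894, 3256 and 2947 TPM), beside 5 nuclear protein-coding genes.

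Transthyretin, Ttr, which choroid plexus makes in large amounts, was the highest nuclear protein-coding gene at rank 9, with 12237, 11572 and 8991 TPM. Ttr and the other 11 choroid plexus markers were each higher in nTg_24w_1 than in both other libraries, but not in like proportion. Ttr was close between nTg_24w_1 and nTg_24w_3. By contrast, the water channel Aqp1 stood at 35.6, 15.1 and 12.3 TPM and the chloride channel protein Clic6 at 58.8, 30.8 and 22.8 TPM. The part of choroid plexus in the level of Ttr was not tested. Rplp1, an acidic protein of the ribosomal stalk, stood at 5365, 4778 and 4028 TPM and Selenow, a small selenoprotein, at 3929, 4649 and 4026 TPM. Calm2, which encodes the calcium sensor calmodulin, stood at 3417, 2902 and 3306 TPM, and Cst3, the protease inhibitor cystatin C, at 2463, 3368 and 2480.0 TPM. Below the 20 highest, and chosen after their values were seen, came the postsynaptic calmodulin-binding protein neurogranin, Nrgn, at 2042, 2139.9 and 2250.0 TPM, the peptide-processing enzyme Cpe at 1759.6, 1923 and 2058 TPM and the lipid carrier Apoe at 1687, 2044 and 1821 TPM.

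By annotated biotype, protein-coding genes held 65.7 ± 1.89% of TPM, genes annotated as miRNA 15.6 ± 2.26% and lincRNA genes 10.3 ± 3.10%. Nearly all of the miRNA share was Gm23935 (15.0 ± 2.12%) and nearly all of the lincRNA share Bc1 (9.92 ± 3.08%). Whether the reads over Gm23935 came from a miRNA or from another RNA with the same bases was not tested. The miRNA share is therefore a share of annotation, not of miRNA. The lincRNA share was lowest in nTg_24w_1 (6.84%), against 12.8% in nTg_24w_3 and 11.3% in nTg_15w_2, and the miRNA share was highest there (17.9%, 13.4% and 15.6%). Mitochondrial rRNA held 3.88 ± 0.557%, nuclear rRNA genes 1.61 ± 0.542% and mitochondrial tRNA 1.02 ± 0.411%. Counted as reads rather than per length, protein-coding genes held 93.1 ± 0.436%. The 6826 genes with under 200 exonic bases held 26.8 ± 1.49% of TPM, a share that a division by few bases makes large, and levels of such genes are the least certain in the table.

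Within the rarer biotypes, the highest lincRNA after Bc1 was the nuclear RNA Malat1 (472, 866 and 804 TPM), followed by 2900097C17Rik (520.3, 202 and 289 TPM). Gm15564 led the antisense genes (109, 86.3 and 100.4 TPM) and 2410006H16Rik the processed transcripts (159.8, 170.0 and 145 TPM). Snord104, which guides RNA modification, led the small nucleolar RNAs (46.7, 128 and 96.6 TPM), Gm25047 the small nuclear RNAs (17.8, 26.7 and 50.3 TPM) and Gm44509 the genes to be experimentally verified (39.4, 43.3 and 53.4 TPM). Among sense intronic RNAs Peg13, an imprinted RNA transcribed from the paternal allele, stood at 108, 67.1 and 83.9 TPM. The highest processed pseudogene was Gstp-ps (148, 195 and 184 TPM), the highest bidirectional promoter lncRNA Gm47163 (36.3, 35.3 and 39.2 TPM), and the highest transcribed processed and unprocessed pseudogenes were Rps4l (69.99, 49.8 and 84.4 TPM) and Gm19196 (23.7, 30.2 and 27.5 TPM). Reads of a pseudogene and its parent gene, and of antisense and sense genes, may not be separable, since how the counting treated strand and multiple hits was not given in the sources used here.

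By chromosome, the mitochondrial genome held 18.6%, 20.3% and 19.2% of TPM, the largest share of any chromosome in each library. Chromosome 16 held 18.3%, 14.1% and 16.2% and chromosome 7 held 11.2%, 17.4% and 15.8%, the annotated places of Gm23935 and of Bc1. These were also the 2 chromosomes whose shares varied most between libraries, with SDs of 2.15 and 3.19 percentage points. The counts of Gm23935 cannot be assigned to a locus, since copies of its sequence lie on other chromosomes, so the share of chromosome 16 is uncertain. Of nuclear TPM, chromosome 16 held 20.1 ± 2.45%; without genes under 200 bases the highest nuclear share was that of chromosome 11, at 9.19 ± 0.0833%. Chromosome X held 2.11 ± 0.0290% of TPM and chromosome Y 0.00500 ± 0.00204%.

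**Figure D2:**
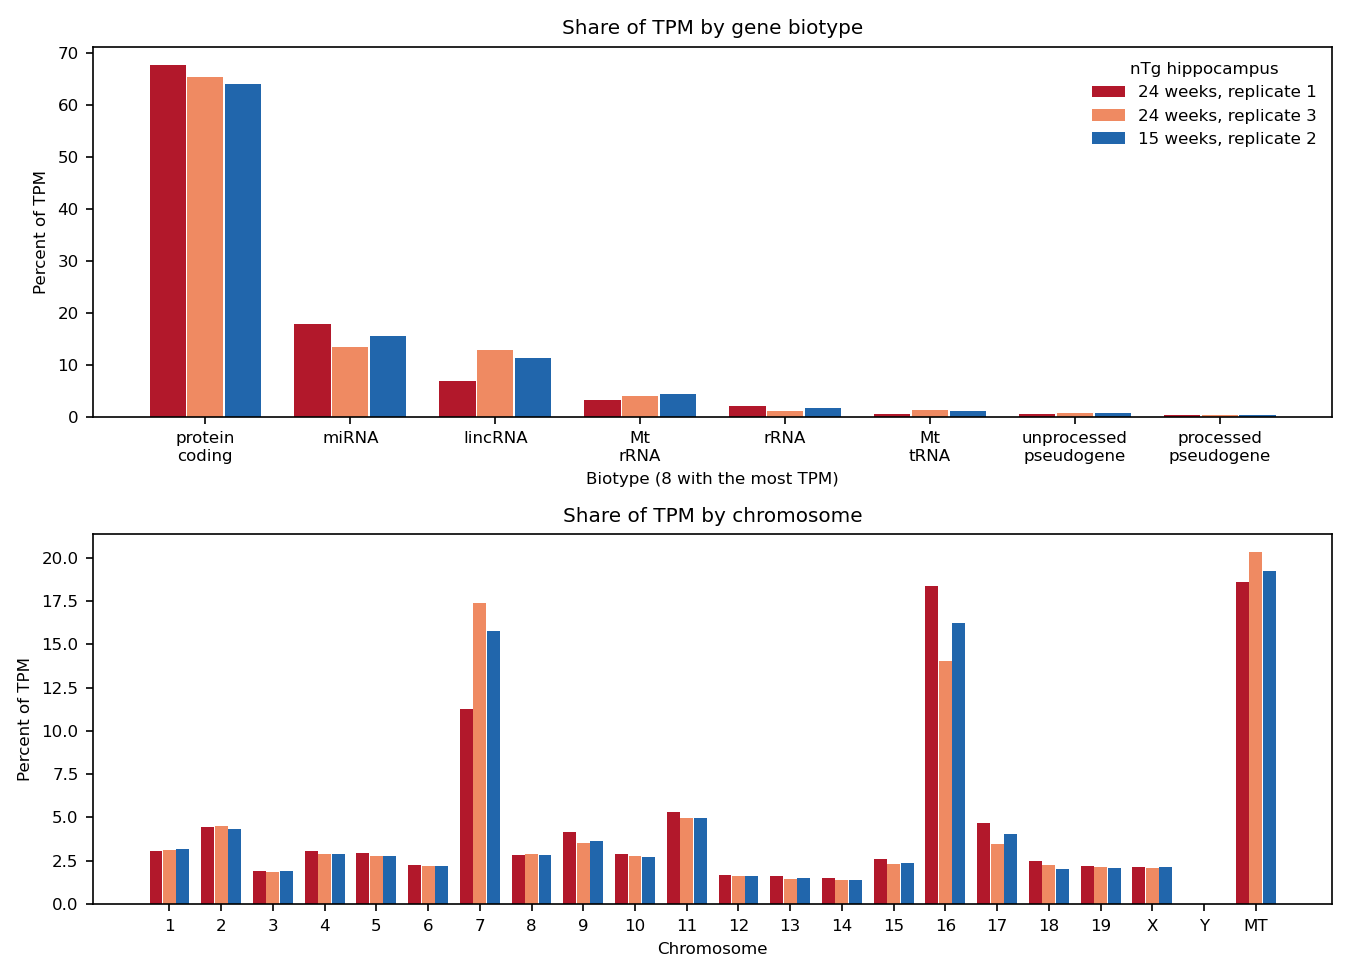
Percent of TPM by gene biotype (top, the 8 biotypes with the most TPM) and by chromosome (bottom), with a bar for each nTg library. Protein-coding genes held 64.1% to 67.8% and the mitochondrial genome 18.6% to 20.3%, and chromosomes 7 and 16 stood above all other nuclear chromosomes in each library. The bar of chromosome 16 is mostly Gm23935, whose counts cannot be assigned to a locus.

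The 13 protein-coding genes of the mitochondrial genome held 14.5 ± 0.663% of TPM, its 2 rRNA genes 3.88 ± 0.557% and its 22 tRNA genes 1.02 ± 0.411%. All 13 encode subunits of the respiratory chain or ATP synthase and are transcribed from a shared genome, yet their levels spanned mt-Co1 at 40741 ± 2607 TPM to mt-Atp8 at 33.1 ± 6.69 TPM. mt-Co3 stood at 299, 639 and 570.4 TPM, mt-Co2 at 343, 414 and 704 TPM, mt-Atp6 at 259, 540.0 and 538 TPM, mt-Nd3 at 374, 340.5 and 322 TPM and mt-Nd4l at 66.1, 71.2 and 48.5 TPM. For these 5 genes between 96.7% and 100% of 50-base windows also lie in transcripts of other annotated genes, against 62.4% for mt-Nd4, 51.3% for mt-Co1, 8.08% for mt-Nd2, 7.30% for mt-Nd5 and 0% for mt-Nd1, mt-Cytb, mt-Nd6 and mt-Atp8. Pseudogenes on chromosome 1 that share such windows were themselves high: Gm10925, which shares 98.4% of the windows of mt-Atp6, stood at 588, 1787 and 3178 TPM, Gm28437, which shares all windows of mt-Co3, at 1049, 2205 and 1080.1 TPM, and Gm29216, which shares 28.7% of those of mt-Co1, at 1883, 1326 and 1410.0 TPM. The part of shared sequence in the low values was not tested. Among the 22 tRNA genes, mt-Tn (439, 3589 and 2964 TPM) and mt-Tc were lowest in nTg_24w_1, and mt-Tk and mt-Td were listed at 0. Nuclear ribosomal protein genes, 86 in all with 81 at 1 TPM or more, held 3.64 ± 0.197% of TPM.

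For relative levels within families, 53 families with 973 members were followed. Of these members 769 stood at 1 TPM or more in all 3 libraries, 158 under 1 TPM in all, and 46 on both sides of 1 TPM; 15 were listed at 0 in all. The median member had a mean of 13.02 TPM, against 2.92 TPM for all protein-coding genes. The same member was the highest in all 3 libraries in 47 of the 53 families. Of 739 pairs of neighbours in the order of mean TPM, members of 1 TPM or more, 410 (55.5%) were ordered alike in all 3 libraries and 303 (41.0%) had ranges that did not overlap. Another member led in 18 families when counts were not divided by length, and in 8 when divided by the length of the longest transcript; the leader's share moved by more than the SD between libraries in 48 and in 36 families. Shares below hold for deposited TPM. Neighbours in an order below are therefore often not separable, and it is stated where a gene stands apart.

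Ionotropic glutamate receptors carry fast excitation. Of the 4 AMPA subunits, Gria1 stood at 344, 313 and 355 TPM, 68.3 ± 5.41% of the AMPA sum, and Gria2, the subunit that makes the channel impermeable to calcium, at 71.8, 117 and 125 TPM. Gria1 was above Gria2 in every library, by 4.79, 2.68 and 2.83 times, with Gria2 lowest in nTg_24w_1. Division by the union of all annotated exons, 15548 bases for Gria2, lowers the TPM of a gene with long alternative exons. Gria3 had 37.1 ± 5.87 TPM and Gria4 16.1 ± 1.75 TPM. Among the 5 kainate subunits Grik5, which needs a partner subunit to form a channel, stood at 94.5, 107 and 107 TPM, 70.5 ± 1.04% of their sum, and the next, Grik4, at 22.7, 21.4 and 20.9 TPM. The orphan delta subunit Grid1 stood at 25.2, 23.1 and 24.1 TPM.

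Auxiliary subunits, which steer AMPA receptors to the surface and set their gating, had a higher sum of TPM than the pore subunits. The 12 auxiliary genes summed to 1549, 1412 and 1372 TPM, against 462, 482 and 540 TPM for the 4 AMPA subunits. Cnih2, a cornichon that escorts AMPA receptors out of the endoplasmic reticulum, held 62.2 ± 2.13% of this sum with 991, 888 and 822 TPM, and was 4.87 times the next member on average. That was Cacng7 (197, 177 and 181 TPM), followed by Cacng8, the hippocampal transmembrane AMPA receptor regulatory protein, at 86.8, 82.4 and 81.7 TPM and Shisa7 at 49.4, 70.5 and 66.7 TPM. All 12 stood at 1 TPM or more in every library, and the lowest, Cacng5, at 4.56, 6.45 and 6.23 TPM. Exonic length, 1369 bases for Cnih2, enters both sums. Its part in the difference between auxiliary and pore subunits was not tested.

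NMDA receptors, the coincidence detectors of plasticity, were led by the obligatory subunit Grin1 (52.6, 76.5 and 73.6 TPM), lowest in nTg_24w_1. Grin2b (40.6, 39.3 and 41.9 TPM) was above Grin2a (31.3, 36.5 and 38.8 TPM) in each library, by 1.30, 1.08 and 1.08 times, and both stood above Grin2c (14.3, 15.8 and 16.2 TPM). All 5 neighbouring pairs of this family were ordered alike with ranges apart. Grin3b had 0, 0.120 and 0.232 TPM. Among metabotropic glutamate receptors Grm5, coupled to phospholipase C, stood at 39.9, 49.4 and 55.4 TPM, Grm2 at 19.6, 30.9 and 33.2 TPM and the astrocytic Grm3 at 27.9, 25.6 and 25.9 TPM. Grm5 was the highest in every library, and Grm2 and Grm3 changed places, Grm2 being below Grm3 in nTg_24w_1. Grm6, a receptor of retinal bipolar cells, was listed at 0 in all 3.

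GABA-A receptors are pentamers that carry fast inhibition. Gabra5, the alpha subunit of extrasynaptic receptors that is prominent in hippocampus, stood at 137, 134 and 148 TPM, the highest of the 19 genes in each library. By role, 6 alpha subunits summed to 331 ± 31.9 TPM, 3 beta subunits to 172 ± 8.29 TPM and the gamma, delta and other subunits to 94.0 ± 20.7 TPM. Gabra6, a subunit of cerebellar granule cells, was under 0.1 TPM in all libraries. The metabotropic Gabbr1 (218, 202 and 222 TPM) was above its obligatory partner Gabbr2 (89.1, 87.7 and 94.6 TPM). Of the glycine receptor genes Glrb, whose product binds the scaffold gephyrin, stood at 64.9, 75.1 and 85.7 TPM, and the alpha subunit Glra2 at 4.56, 4.58 and 5.78 TPM.

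**Figure D3:**
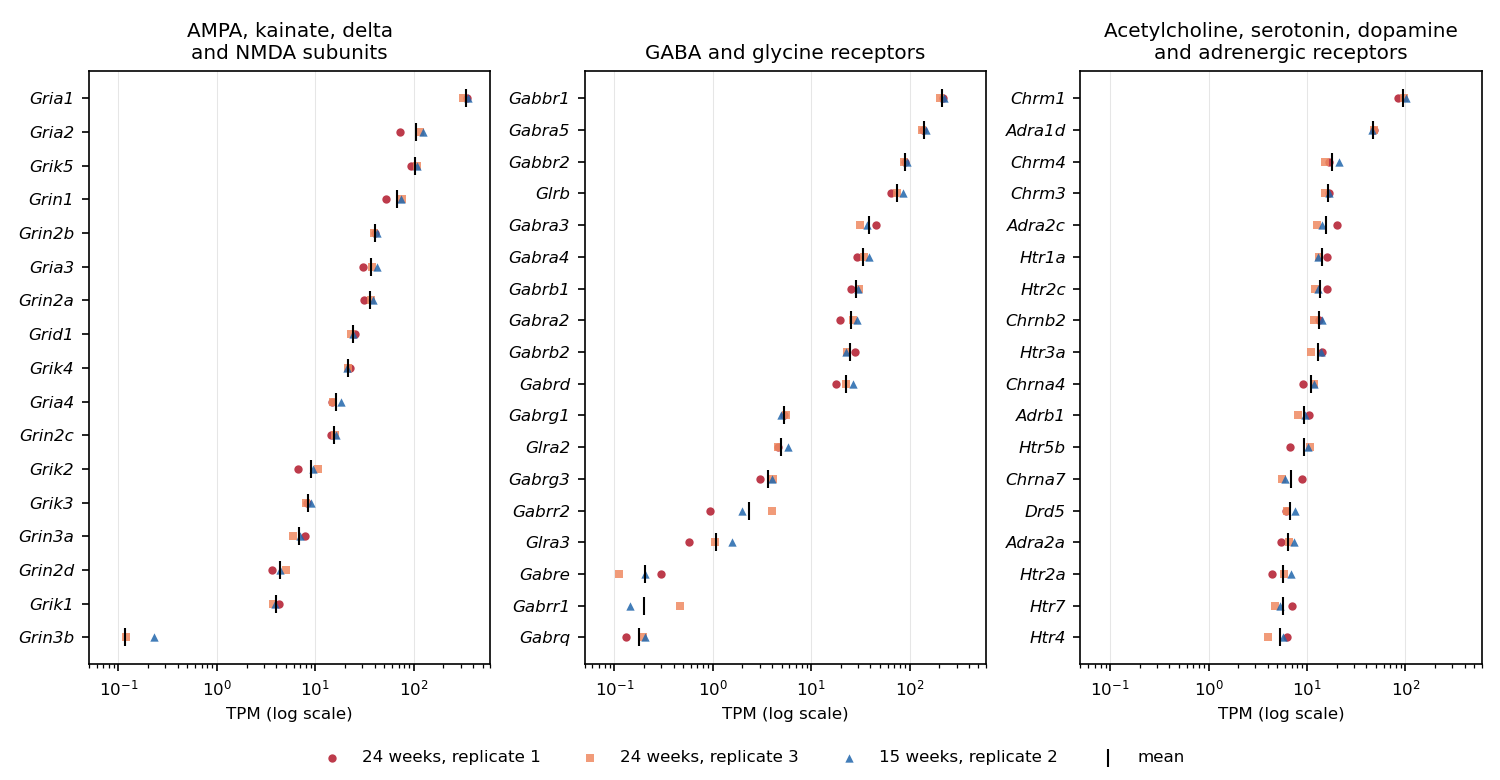
TPM on a log scale of members of the glutamate (left), GABA and glycine (middle) and aminergic and cholinergic receptor families (right), up to 18 of the members reported here, by mean, in each nTg library, with a bar at the mean; a value of 0 is not drawn. Gria1, Gabbr1 and Chrm1 lead their panels in all 3 libraries.

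Acetylcholine receptors were led by the muscarinic M1 receptor Chrm1 (83.5, 96.9 and 102 TPM), 54.97 ± 2.66% of the family and above all others in each library. Chrm4 (16.8, 15.4 and 21.3 TPM), Chrm3 (16.8, 15.3 and 16.9 TPM) and the nicotinic Chrnb2 (13.3, 11.7 and 14.4 TPM) followed. The 5 muscarinic genes summed to 133 ± 11.3 TPM and the 13 nicotinic genes to 38.2 ± 1.37 TPM, of which 4 reached 1 TPM in all libraries. Chrna6, Chrna9 and Chrnb3 stayed under 0.1 TPM and Chrna10 was listed at 0.

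Serotonin receptors had no leader that held in all libraries. Htr1a stood at 16.1, 13.4 and 12.9 TPM, Htr2c, which choroid plexus also expresses, at 16.04, 12.1 and 12.9 TPM, the ion channel subunit Htr3a at 14.3, 11.05 and 13.9 TPM and Htr5b at 6.69, 10.7 and 10.3 TPM. The ranges of the first 3 overlapped, and Htr5b was the lowest of the 4 in each library. Htr3b was under 0.1 TPM. Among catecholamine receptors Adra1d stood at 48.02, 47.6 and 45.3 TPM, 49.6 ± 2.73% of the family, then Adra2c (20.03, 12.6 and 14.1 TPM) and the beta-1 receptor Adrb1 (10.4, 8.13 and 9.64 TPM). The highest dopamine receptor was Drd5 (6.14, 6.25 and 7.65 TPM); 47.9% of its windows lie in transcripts of Gm26560, so its level is uncertain. The 5 dopamine receptors summed to 11.3 ± 1.198 TPM and the 9 adrenergic receptors to 83.5 ± 5.29 TPM. Drd3 was listed at 0 and Adra2b under 0.1 TPM.

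Among purine and histamine receptors the inhibitory adenosine receptor Adora1 stood at 86.2, 66.5 and 71.9 TPM, 90.9 ± 1.61% of adenosine receptor TPM. The microglial ADP receptor P2ry12 (25.9, 31.4 and 36.4 TPM) and the presynaptic histamine receptor Hrh3 (28.5, 29.2 and 28.6 TPM) followed with overlapping ranges, then P2ry13 (10.1, 10.8 and 8.28 TPM). P2rx2 and P2ry4 were under 0.1 TPM and Hrh4 was at 0. In the endocannabinoid system the lipase Abhd12 stood at 293, 358 and 323 TPM, monoacylglycerol lipase, Mgll, at 102, 80.4 and 95.6 TPM, Abhd6 at 50.9, 55.6 and 64.9 TPM and the CB1 receptor Cnr1 at 57.5, 46.3 and 67.3 TPM. CB1 made up 99.9 ± 0.143% of receptor TPM, with Cnr2 at 0, 0.133 and 0.0822 TPM.

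Among nuclear receptors the thyroid hormone receptor Thra stood at 399, 293 and 309.5 TPM, 41.4 ± 1.32% of 41 genes and 5.27 times the next on average. That was the clock repressor Nr1d1 (75.4, 52.00 and 62.5 TPM), followed by the mineralocorticoid receptor Nr3c2 (59.96, 40.9 and 49.3 TPM) and the activity-induced Nr4a1 (44.7, 27.3 and 39.3 TPM); each was highest in nTg_24w_1 and lowest in nTg_24w_3. Nr3c2 was 2.45, 2.69 and 2.21 times the glucocorticoid receptor Nr3c1. Nr5a1, Nr5a2 and Vdr were under 0.1 TPM. For insulin, IGF and metabolic hormones, the adiponectin receptors Adipor1 (35.9, 26.5 and 28.9 TPM) and Adipor2 (24.4, 19.5 and 18.5 TPM) were the highest, and Igf2r (7.98, 8.28 and 7.57 TPM) and Igf1r (7.57, 7.72 and 7.33 TPM) came next, close to the insulin receptor Insr (6.89, 7.01 and 7.95 TPM, named after its values were seen). The thyrotropin receptor Tshr was under 0.1 TPM. Of neurotrophin and growth factor receptors, the sorting receptor Sort1 (164, 154 and 170.1 TPM) stood above its relative Sorl1 (53.5, 59.5 and 63.8 TPM) and the BDNF receptor Ntrk2 (54.03, 50.03 and 49.6 TPM), whose order was reversed in nTg_24w_1. The astrocytic Fgfr3 came next (22.2, 32.5 and 23.3 TPM).

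Voltage-gated sodium channels showed higher levels of auxiliary than of pore-forming subunits. The beta subunits Scn3b (91.6, 96.5 and 101 TPM) and Scn2b (124, 72.4 and 88.4 TPM) changed places, Scn2b being higher only in nTg_24w_1. The highest pore subunit by mean was Scn2a (38.2, 45.6 and 50.6 TPM), but its order with Scn8a did not hold in every library. Sums were 748 ± 23.0 TPM for the 4 beta and 114 ± 12.8 TPM for the 10 alpha genes, and the part of exonic length in this difference was not tested. Scn4a and Scn11a, of skeletal muscle and sensory neurons, were under 0.1 TPM and Scn10a was at 0. For calcium channels the beta subunits Cacnb3 (105, 83.8 and 91.2 TPM) and Cacnb1 (64.8, 57.5 and 60.99 TPM) were followed by the alpha 2 delta subunit Cacna2d1 (24.7, 35.2 and 41.7 TPM) and the R-type pore Cacna1e (23.4, 28.3 and 27.6 TPM). The 10 alpha 1 genes, which form the pore, summed to 120.0 ± 11.97 TPM, the 4 beta genes to 184 ± 15.0 TPM and the 4 alpha 2 delta genes to 62.7 ± 10.6 TPM. Cacna1s, the pore of skeletal muscle, was under 0.1 TPM.

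Kv potassium channels were spread over many members with no dominant gene. In other groups, Kcnk1 held 59.3% of the TPM of the 14 genes of 2-pore channels and Kcnab2 43.1% of that of the 13 auxiliary genes. Among the 38 Kv genes the A-type channel Kcnd2 stood at 42.9, 48.5 and 57.5 TPM and the Kv3 channel Kcnc4 at 39.02, 36.6 and 39.6 TPM. The silent subunit Kcnf1 led its group at 23.9, 22.97 and 26.8 TPM, and Kcnv2, a retinal subunit, was under 0.1 TPM. Of the auxiliary genes Kcnab2 stood at 295, 232 and 234 TPM, Kcnip2 at 95.6, 91.7 and 95.2 TPM, Dpp6 at 55.2, 63.5 and 72.02 TPM and Kcnip3 at 72.9, 54.3 and 55.9 TPM. Kcnab2 was highest in nTg_24w_1 and Dpp6 lowest there. Inward rectifiers were led by Kcnj4 (93.8, 117 and 127 TPM) and the astrocytic Kcnj10 (63.3, 52.9 and 54.6 TPM), with Kcnj3, of G protein-gated channels, at 43.1, 55.00 and 64.1 TPM. Among 2-pore channels Kcnk1 stood at 73.6, 96.6 and 95.6 TPM, and among calcium-activated channels the large-conductance Kcnma1 at 24.3, 24.4 and 27.6 TPM. Kcnj1 and Kcnk15 were listed at 0, and Kcnj15, Kcnk16 and Kcnk18 under 0.1 TPM.

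The pacemaker channel Hcn2 stood at 87.5, 69.3 and 73.2 TPM, 81.2 ± 3.63% of the 4 HCN genes. The highest of the 22 TRP genes by mean was Trpc4 at 11.9 ± 0.879 TPM, but its order with Trpm3 did not hold in every library. Trpm1, Trpm5, Trpm8, Trpv1 and Trpv5 were under 0.1 TPM. Trpc2 was at 0, although 98.6% of its windows are shared with other genes. For calcium stores, the SERCA pump Atp2a2 stood at 219, 236 and 248 TPM, the store-operated channel Orai2 at 63.04, 46.7 and 52.5 TPM, its sensor Stim2 at 42.9, 46.9 and 48.6 TPM and the IP3 receptor Itpr1 at 37.9, 29.4 and 32.3 TPM. Among chloride carriers the extruder KCC2, Slc12a5, stood at 106, 120.0 and 121 TPM and was 4.54, 5.43 and 5.30 times Slc12a2, which imports chloride. Clcn4 (44.4, 48.7 and 53.8 TPM), Ano3 (27.4, 33.2 and 40.2 TPM) and Clcn6 (33.2, 30.3 and 30.99 TPM) followed. Gap junction and water channels had no constant leader: the astrocytic connexin gene Gjb6 stood at 41.2, 64.4 and 41.1 TPM, Panx2 at 47.5, 41.96 and 46.02 TPM, Aqp4, the water channel of astrocyte endfeet, at 41.3, 31.97 and 38.5 TPM and the connexin 43 gene Gja1 at 28.8, 32.2 and 33.02 TPM. Gjb6 was the highest member in nTg_24w_3, and Panx2 in nTg_24w_1 and nTg_15w_2.

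Neuropeptide precursors reached summed levels far above those of the listed neuropeptide receptors, but the lists do not pair each peptide with its receptor. The precursors include granins and related secretory granule proteins, cerebellins (Cbln1, Cbln2 and Cbln4) and neurexophilins (Nxph1, Nxph3 and Nxph4). The 50 precursors summed to 3529, 4139 and 4138 TPM, lowest in nTg_24w_1, against 313, 330 and 325 TPM for the 36 receptors. Somatostatin, Sst, made by interneurons, stood at 707, 783 and 781 TPM and cholecystokinin, Cck, made by interneurons and pyramidal cells, at 624, 776 and 653 TPM. Sst was the highest in each library, 1.11 times Cck on average, and the ranges overlapped. By counts not divided by length Chgb led, and by the length of the longest transcript Cck. Secretory granule proteins came next, with chromogranin B, Chgb, at 434, 510.1 and 563 TPM and Pcsk1n, an inhibitor of prohormone convertase, at 456, 439 and 406 TPM. The 11 interneuron peptides summed to 1856 ± 175 TPM and the 7 granins and related genes to 1862 ± 156 TPM, while 10 hypothalamic peptides summed to 6.56 ± 1.08 TPM, led by Pomc at 1.40, 2.11 and 1.57 TPM. Gastrin-releasing peptide, Grp, led the remaining 22 precursors with 35.7, 56.8 and 54.9 TPM. Nmu and Ucn3 were listed at 0. Sst was 85.9, 63.1 and 56.9 times Vip.

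Precursor promoters, from 250 bases before to 50 after the RefSeq start site, were searched on both strands for TGACGTCA, the cAMP response element by which the somatostatin gene is known to respond to cAMP, and for TATAAA. Of the 50 precursors 38 had a promoter in the table (41 promoters), which is under the 80% needed to set them against all promoters. TGACGTCA was in 5 of the 41 and TATAAA in 12; over all 32851 promoters of the table the shares were 1.79% and 13.6%. Among the 10 highest precursors, of which Vgf had no promoter in the table and was not searched, TGACGTCA was found in Sst, Chgb and Scg2. The product of Scg2, secretogranin II, is sorted to dense-core granules, and Scg2 stood at 188, 202 and 224 TPM. The motif was also found in precursors of low level, Cartpt (mean 6.54 TPM) and Ucn (mean 0.160 TPM). Promoters of Sst, Chgb and Scg2 are shown with the motif in capitals. Its first base lies 48 bases before the start site in Sst, 72 in Chgb and 68 in Scg2. The match of letters is a description, and binding was not measured. The windows are chr16:23890795-23891094 on the minus strand for Sst, chr2:132781392-132781691 on the plus strand for Chgb and chr1:79439977-79440276 on the minus strand for Scg2 (GRCm38.p6).
Sst: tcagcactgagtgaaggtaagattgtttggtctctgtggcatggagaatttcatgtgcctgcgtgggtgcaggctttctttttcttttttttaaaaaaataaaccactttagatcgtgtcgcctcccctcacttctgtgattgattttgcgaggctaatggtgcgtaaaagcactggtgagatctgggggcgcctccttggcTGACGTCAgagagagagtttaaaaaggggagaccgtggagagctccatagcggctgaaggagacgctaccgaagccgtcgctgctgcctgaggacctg
Chgb: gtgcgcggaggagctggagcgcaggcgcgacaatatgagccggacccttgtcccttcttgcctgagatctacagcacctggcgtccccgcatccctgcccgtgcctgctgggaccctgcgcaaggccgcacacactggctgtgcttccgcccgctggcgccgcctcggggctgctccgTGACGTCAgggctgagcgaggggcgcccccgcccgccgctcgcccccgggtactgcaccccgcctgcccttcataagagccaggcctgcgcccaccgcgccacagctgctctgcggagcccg
Scg2: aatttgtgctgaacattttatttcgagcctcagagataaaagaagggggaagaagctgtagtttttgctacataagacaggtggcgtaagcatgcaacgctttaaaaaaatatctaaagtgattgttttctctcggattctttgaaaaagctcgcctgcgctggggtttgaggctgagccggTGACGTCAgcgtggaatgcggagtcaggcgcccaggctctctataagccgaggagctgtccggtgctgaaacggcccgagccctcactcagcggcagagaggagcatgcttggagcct

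Processing enzymes were dominated by carboxypeptidase E, Cpe, with 1759.6, 1923 and 2058 TPM, 92.00 ± 0.0903% of 11 genes. The convertase Pcsk2 (65.4, 77.3 and 82.02 TPM), the amidating enzyme Pam (26.7, 25.6 and 28.6 TPM) and Cpd (26.1, 23.9 and 26.8 TPM) followed. Among peptide receptors the neurotensin receptor Ntsr2 stood at 78.9, 117 and 90.2 TPM, the PACAP receptor Adcyap1r1 at 57.4, 44.9 and 51.2 TPM, Npy2r at 21.9, 25.8 and 29.3 TPM and the nociceptin receptor Oprl1 at 23.7, 18.7 and 21.4 TPM. Ntsr2 was the highest in each library; Npy2r and Oprl1 changed places, with Oprl1 above only in nTg_24w_1. The highest somatostatin receptor by mean was Sstr3 (16.4, 11.4 and 15.02 TPM), but its order with Sstr4 did not hold in every library. The 5 somatostatin receptors summed to 44.2 ± 7.36 TPM. Npy5r, at 7.07, 7.09 and 7.04 TPM, was among the 10 genes of mean 5 TPM or more with the smallest spread between libraries. It rested on 127, 137 and 165 counts, and so small a spread is not read as a trait of the gene. Npy4r was listed at 0 and Npy6r under 0.1 TPM.

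Growth factors were led by pleiotrophin, Ptn (157, 146 and 161 TPM), the intracellular Fgf13, which binds sodium channels (113, 88.2 and 97.1 TPM), Vegfb (93.8, 81.9 and 82.1 TPM) and midkine, Mdk (43.2, 50.04 and 42.00 TPM). Brain-derived neurotrophic factor, Bdnf, was the highest neurotrophin at 16.4, 15.8 and 18.4 TPM, 44.8 ± 1.79% of the 4.

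**Figure D4:**
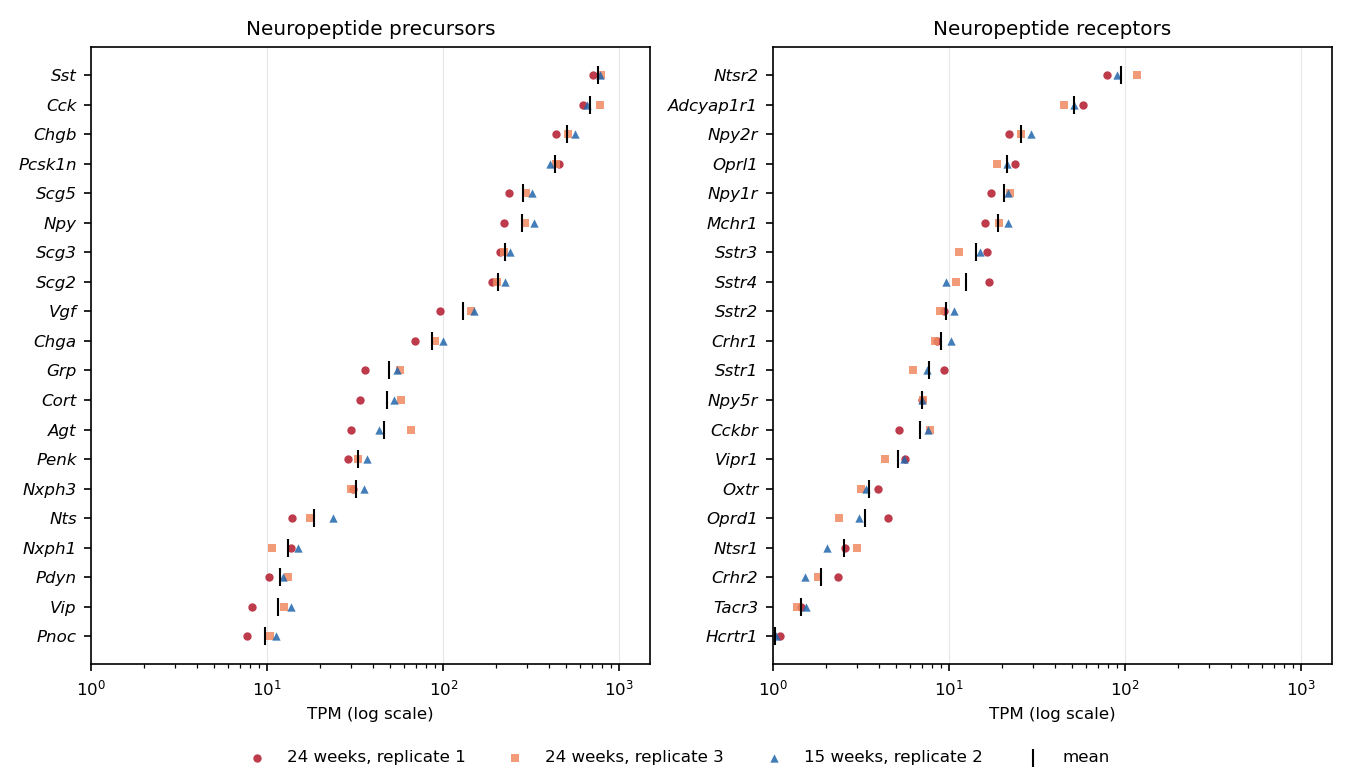
TPM on a log scale of the 20 highest neuropeptide precursors (left) and the 20 highest neuropeptide receptors (right) in each nTg library, with a bar at the mean. Precursors reach 783 TPM (Sst in nTg_24w_3) and receptors 117 TPM (Ntsr2 in nTg_24w_3), and most precursors are lowest in nTg_24w_1.

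In energy metabolism, the 25 glycolysis genes summed to 5432, 5083 and 4930 TPM. Gapdh stood at 993, 915 and 865 TPM, triose phosphate isomerase, Tpi1, at 563, 627 and 592 TPM, the astrocytic aldolase Aldoc at 602, 604 and 499 TPM and pyruvate kinase, Pkm, at 487, 493 and 495 TPM. Pkm was nearly level across libraries, whereas 50.5% of the windows of Gapdh and 32.4% of those of Pkm also lie in other genes. Aldoa, like the peptide precursor gene Kiss1, was left out of the families because its symbol belongs to more than 1 gene; the aldolase A gene with the ID ENSMUSG00000030695 stood at 1446, 1536 and 1455 TPM, above Gapdh in each library. Pfkm led the hexokinase and phosphofructokinase genes with 204, 197 and 195 TPM. Of lactate dehydrogenases Ldhb (553, 459 and 442 TPM) was 2.95, 2.56 and 2.52 times Ldha, and the neuronal enolase Eno2 1.14, 1.32 and 1.36 times Eno1, in every library in the same direction. The liver isozyme Pklr was under 0.1 TPM and the testis isozyme Ldhc was at 0.

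For the citric acid cycle all 21 genes were at 1 TPM or more, led by the malate dehydrogenase Mdh1 (724, 479 and 553 TPM), which as the cytosolic isozyme serves the malate-aspartate shuttle. The succinate dehydrogenase subunit Sdhb (184, 209 and 185 TPM) and the mitochondrial Mdh2 (190.2, 169 and 179 TPM) stood below it. Mdh1 was highest in nTg_24w_1 and its range stood apart from the rest. Around pyruvate dehydrogenase no member led in all libraries: the kinase Pdk2 stood at 98.9, 103 and 91.5 TPM, Pdha1 at 109, 65.2 and 67.4 TPM, Pdhb at 76.8, 70.4 and 80.3 TPM and Dlat at 58.1, 45.7 and 51.5 TPM. All 16 nuclear cytochrome oxidase genes were at 1 TPM or more, led by Cox8a (2386, 2421 and 1902 TPM), Cox4i1 (1279, 1459.6 and 1214 TPM), Cox6a1 (1273, 1105 and 927 TPM) and Cox6b1 (743, 1271 and 1072 TPM). Cox4i1 was the highest of them by counts not divided by length and by the length of the longest transcript. Their sum of 8353 ± 834 TPM was below the 40741 ± 2607 TPM of the mitochondrial mt-Co1 alone. It was above the other mitochondrial oxidase subunits, mt-Co2 (487 ± 191 TPM) and mt-Co3 (503 ± 179 TPM). Of the windows of mt-Co2 and mt-Co3 100% are shared with other genes, and of those of mt-Co1 51.3%, so these levels are uncertain.

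Of sugar and lactate carriers the ancillary protein basigin, Bsg, stood at 870.5, 1024 and 926 TPM, 83.4 ± 0.0577% of its family. The glucose transporters Slc2a1 (33.6, 52.2 and 36.6 TPM), of vessels and astrocytes, and Slc2a3 (35.5, 36.05 and 39.2 TPM), of neurons, changed places, Slc2a1 being higher only in nTg_24w_3, and Slc2a13, a proton-inositol carrier, stood at 24.4, 34.4 and 34.6 TPM. Glycogen genes were led by the brain phosphorylase Pygb (118, 97.8 and 101 TPM), then the glycogen-targeting subunit Ppp1r3c (60.4, 24.02 and 35.2 TPM), Gyg (28.9, 24.2 and 28.5 TPM) and Pygm (20.6, 23.1 and 16.4 TPM). Creatine kinase B, Ckb (623, 583 and 539.8 TPM), stood above the adenylate kinases Ak5 (184, 162 and 157 TPM) and Ak1 (102, 95.3 and 89.2 TPM) and the mitochondrial Ckmt1 (152, 142 and 167 TPM) in every library.

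Sodium pump genes were among the highest of all families. The beta subunit Atp1b1 stood at 991, 1127 and 1204 TPM, lowest in nTg_24w_1, and the glial beta subunit Atp1b2 at 292, 371 and 332 TPM, with ranges apart. Atp1a4, of sperm, was under 0.1 TPM. The plasma membrane calcium pumps were led by Atp2b1 (113, 123 and 138 TPM).

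Among lipid carriers Apoe stood at 1687, 2044 and 1821 TPM, 65.04 ± 0.794% of 17 genes, with clusterin, Clu, at 571, 691 and 609 TPM, Apod at 241, 326 and 216 TPM and the receptor Lrp1 at 34.8, 50.2 and 47.02 TPM. Apob, of liver and gut lipoproteins, was under 0.1 TPM. In the App family Aplp1 (1151, 1741 and 1642 TPM) exceeded App (182, 241 and 253 TPM) and Aplp2 (152, 180.1 and 186 TPM), by 6.33, 7.22 and 6.48 times for App, and all 3 genes were lowest in nTg_24w_1. Carbonic anhydrase and fatty acid binding genes had no constant leader. Car11, a family member without catalytic activity, stood at 181, 212 and 200.4 TPM, Car2, of oligodendrocytes and choroid plexus, at 217, 124 and 158 TPM, Fabp3 at 148, 175 and 169 TPM and Fabp5 at 65.7, 69.3 and 69.8 TPM. Fabp2 was listed at 0 and Fabp4 under 0.1 TPM.

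**Figure D5:**
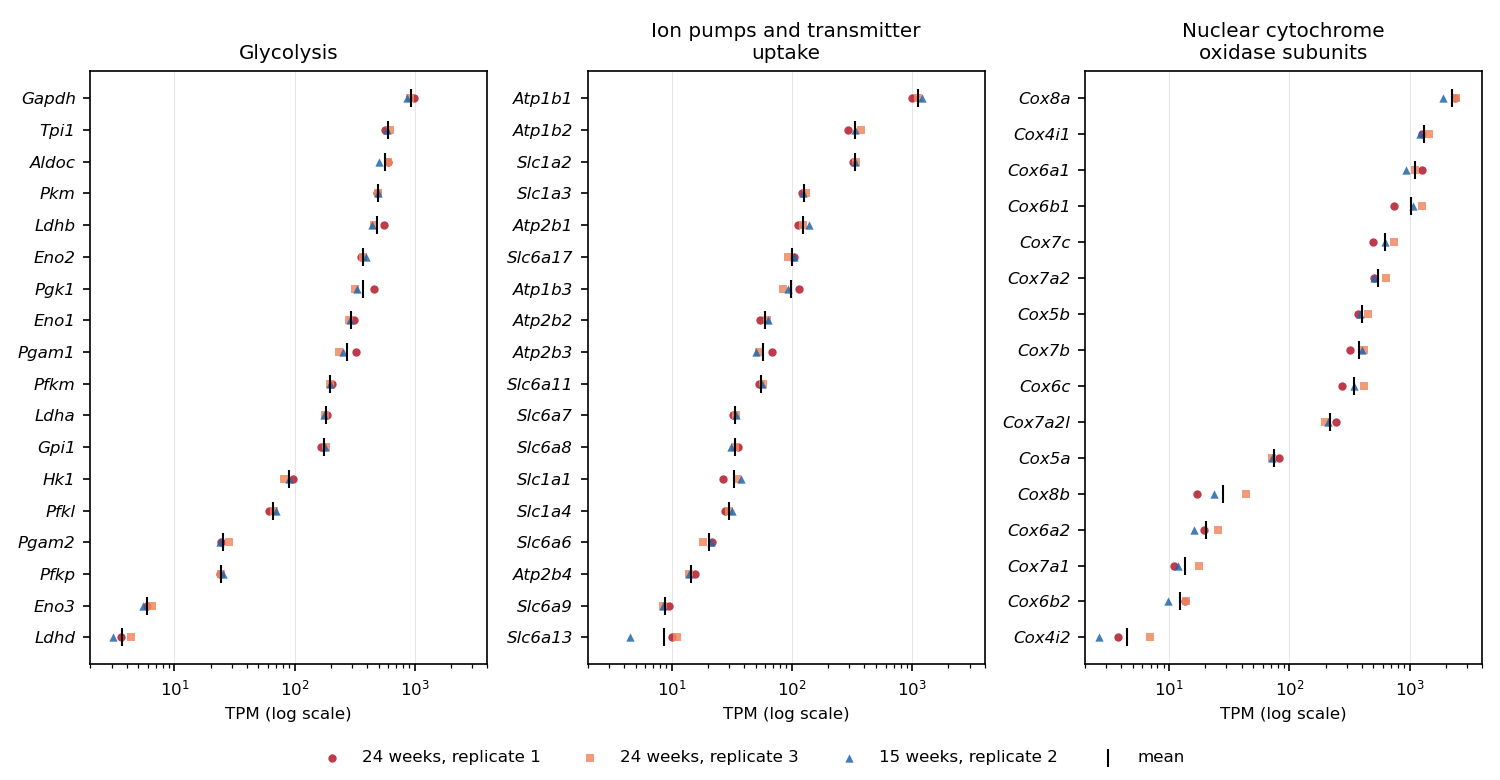
TPM on a log scale of up to 18 of the members reported here, by mean, among glycolysis genes (left), ion pump and transmitter uptake genes (middle) and the 16 nuclear cytochrome oxidase genes (right) in each nTg library, with a bar at the mean. Atp1b1 leads the middle panel at 991 to 1204 TPM, and Cox8a leads the oxidase genes at 1902 to 2421 TPM.

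Transmitter genes comprise enzymes, vesicular carriers and uptake carriers. Glutamine synthetase, Glul, an astrocyte enzyme, stood at 1091, 964 and 885 TPM, and the vesicular glutamate carrier Slc17a7 at 793, 924 and 1012 TPM, higher than Glul in nTg_15w_2 only. Slc17a7 was 121, 121 and 108 times Slc17a6, the carrier typical of thalamus and other subcortical regions. Glud1 stood at 145, 106 and 116 TPM and Gad1, which makes GABA, at 75.1, 60.3 and 78.2 TPM, 1.78, 1.93 and 1.98 times Gad2. The 14 monoamine and acetylcholine genes summed to 140.3 ± 2.32 TPM. Chat and Slc18a3, which mark cholinergic neurons, were under 0.1 TPM. At the plasma membrane the astrocytic glutamate transporter Slc1a2 stood at 322, 338 and 334 TPM and Slc1a3 at 121, 131 and 124 TPM, above Slc6a17 (105, 92.2 and 104 TPM). The noradrenaline transporter Slc6a2 was at 0 and the serotonin and glycine transporters Slc6a4 and Slc6a5 were under 0.1 TPM; noradrenaline and serotonin transporters are known to be made in cell bodies outside the hippocampus.

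For the release machinery Vamp2 stood at 905, 865 and 958 TPM, complexin 2, Cplx2, at 747, 473 and 548 TPM, Snap25 at 589, 531 and 617 TPM and complexin 1, Cplx1, at 603, 451 and 525 TPM. Cplx1 and Cplx2 were highest in nTg_24w_1 and lowest in nTg_24w_3, and the retinal Cplx4 was under 0.1 TPM. On vesicles beta-synuclein, Sncb (474, 495 and 531 TPM), synapsin 1, Syn1 (437, 451 and 488 TPM), and synaptophysin, Syp (359, 409 and 436 TPM), kept this order in each library. Of synaptotagmins the fast calcium sensor Syt1 (331, 323 and 349 TPM) stood above Syt11 (304, 269 and 323 TPM), Syt5 (137, 168 and 166 TPM) and Syt13 (120.1, 117 and 119.9 TPM), and Syt8 was listed at 0. Postsynaptic scaffolds were led by PSD-95, Dlg4 (148, 119 and 129 TPM), with Dlgap3 at 127, 94.4 and 93.7 TPM and Shank1 at 65.9, 95.4 and 75.6 TPM, and all 16 were at 1 TPM or more. Adhesion molecules were led by Cadm4 (177, 209 and 207 TPM) and Cadm3 (123, 131 and 136 TPM), above the inhibitory-synapse neuroligin Nlgn2 (88.2, 82.7 and 99.6 TPM) and Lrrtm1 (68.8, 60.2 and 64.5 TPM).

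Signalling genes had the highest median of the 7 classes of families, 56.2 TPM, against 34.1 TPM for metabolic, 32.8 TPM for synaptic, 12.8 TPM for transmitter, 8.39 TPM for channel, 7.87 TPM for peptide and 5.31 TPM for receptor genes. The 3 calmodulin genes, which encode an identical protein, summed to 6507, 5308 and 5830 TPM, with Calm2 above Calm3 (1909, 1553 and 1583 TPM) in each library. Nrgn (2042, 2139.9 and 2250.0 TPM) came between them, and the calcium sensor hippocalcin, Hpca, stood at 1283, 1251 and 1155 TPM. Camk2a, the kinase of synaptic plasticity, stood at 1077, 935 and 935 TPM, 4.09, 4.04 and 3.71 times Camk2b, with the calcineurin subunits Ppp3r1 at 572, 589 and 628 TPM and Ppp3ca at 313, 346 and 393 TPM and the pseudokinase Camkv at 352, 321 and 327 TPM. The protein kinase A subunits Prkar1b (349, 302 and 335 TPM) and Prkar1a (358, 263 and 311 TPM) stood above the protein kinase C gene Prkce (212, 151 and 192 TPM) in each library. The neuronal G protein subunit Gng3 stood at 364, 408 and 429.9 TPM, then Gnb1 (284, 186 and 230.2 TPM), Gnb2 (171, 190.0 and 191 TPM) and Gnao1 (125, 99.4 and 108 TPM). The calcium-stimulated cyclase Adcy1 (108, 88.4 and 90.7 TPM) led its family, above Adcy2 (66.6, 61.8 and 73.6 TPM) and the phosphodiesterases Pde1a (72.9, 49.9 and 60.6 TPM) and Pde1b (53.9, 49.5 and 52.6 TPM).

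Of the 14-3-3 proteins Ywhae (702, 524 and 574 TPM), Ywhaz (584, 508 and 549 TPM), Ywhah (571, 489 and 518 TPM) and Ywhab (490.3, 389 and 446 TPM) kept their order in all 3 libraries and were each highest in nTg_24w_1. Cytoskeletal genes were led by Actb (1085, 1231 and 1235 TPM), Tubb4a (764, 739.6 and 815 TPM), Tuba1a (832, 725 and 708 TPM) and Actg1 (675, 483 and 537 TPM), with Tuba1a and Actg1 uncertain because 75.6% and 58.7% of their windows lie in other genes. The polyubiquitin gene Ubb stood at 1343, 1427 and 1281 TPM, with 63.0% of windows shared, Rps27a at 407, 326 and 324 TPM and the histone gene H3f3b at 163, 158 and 159.8 TPM.

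Sequence shared with other genes touched a minority of family members: of 972 with a transcript of 50 bases or more, 502 shared no window with another gene and 65 shared 20% or more. A count in a gene of which much is shared may come from its copy or be lost to it, depending on how reads with several hits were treated. For 9 members over 50% of the exonic bases lie under another gene, and 2 of these reached 1 TPM. For members at 0, the limit that 3 counts set lies between 0.0411 and 0.515 TPM per library, depending on gene length and depth, and covers counting error only.

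Spread between libraries depended on level. The median SD of log2(TPM + 1) was 0.18 over genes with a mean of 1 TPM or more, 0.24 for those of 1 to 5 TPM and 0.16 for those of 10 to 100 TPM, where counting alone gives 0.21 and 0.05. Of the 526 family members with a mean of 10 TPM or more, 247 were highest in nTg_24w_1, 102 in nTg_24w_3 and 177 in nTg_15w_2. Lowest were 191 in nTg_24w_1, 247 in nTg_24w_3 and 88 in nTg_15w_2. By class, of 102 signalling members 72 were highest in nTg_24w_1 and 68 lowest in nTg_24w_3. Of 39 peptide members 20 were lowest in nTg_24w_1 and 25 highest in nTg_15w_2. The same count over all genes of 10 TPM or more is not given here, so these counts are not read as traits of a class. The part of the median difference between libraries in these counts was not tested. The 10 genes of mean 5 TPM or more with the smallest range were Cndp2 (28.6, 28.5 and 28.6 TPM), Imp4, Ncoa6, Rhot2, Wrap73, Fry, Cenpv, Npy5r, Tmem63a and Aldh9a1. The dipeptidase gene Cndp2 varied by under 0.1 TPM and the mitochondrial traffic gene Rhot2 stood at 17.1, 17.1 and 17.01 TPM. The SD of log2(TPM + 1) of Cndp2 was 0.0023, below what counting alone gives at its level. These 10 were picked as the extreme of many genes and are not read as steadier than others.

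Of the 20 genes with the widest range, 10 were lowest in nTg_24w_1 alone, 4 were at 0 in both nTg_24w_1 and nTg_15w_2, and 10 were highest in nTg_24w_3. Leading them were 4 immunoglobulin genes, and most of the rest were small RNA genes under 200 bases. Such were Mir186 (4.01, 35.4 and 58.4 TPM) and Snord49a (1.98, 12.9 and 15.1 TPM). Mir186 rested on 2, 19 and 38 counts and Snord49a on 1, 7 and 10, so the tally by library includes genes with few counts. The Y-linked Ddx3y and Eif2s3y (12.5, 0 and 16.8 TPM) were at 0 in nTg_24w_3. Among other protein-coding genes, chosen after their values were seen, the thrombospondin Thbs4 stood at 5.54, 18.6 and 11.01 TPM and the blood-brain barrier lipid carrier Mfsd2a at 9.80, 27.6 and 17.6 TPM, both lowest in nTg_24w_1. The prostaglandin synthase Ptgds stood at 951, 1784 and 686 TPM and the matrix protein gene Fmod, fibromodulin, at 14.3, 19.6 and 6.33 TPM, highest in nTg_24w_3. The mitochondrial membrane protein Tspo (35.7, 15.5 and 12.2 TPM) and the radial glia marker Fabp7 (72.9, 26.8 and 54.6 TPM) were highest in nTg_24w_1.

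By gene structure, protein-coding genes of 1 to 10 TPM had a median exonic length of 5078 bases and 10 exon blocks, and those of 100 TPM or more 2665 bases and 7 blocks. Genes at 0 in all libraries had 1724 bases and 3 blocks, and spanned a median of 5930 bases of the genome, against 10920 bases for those of 100 TPM or more and 29101 bases for those of 1 to 10 TPM. Since TPM divides by exonic length, part of this relation lies in the unit.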

How the data were processed

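RNA from 3 non-transgenic hippocampus libraries was sequenced, with libraries made by a KAPA mRNA HyperPrep kit per the labels' protocols. Tools named in the submitters' processing notes are HISAT2 2.1.0 and featureCounts 2.0.0, with the build GRCm38, besides Trimmomatic 0.38, CASAVA and DESeq2 1.26.0; how strand and multiple hits were treated was not given in the sources used here. The authors deposited raw read counts per gene, TPM and FPKM. Deposited TPM equalled counts divided by the length of the union of annotated exons (GENCODE M21), scaled to a common sum, within 0.1% for 100% of values with a count, so TPM of genes with long or unused exons is lowered. The deposited FPKM served as an alternative.

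Means, SDs, shares, ranks and ratios were computed from TPM with Python 3.11.15, pandas 2.3.3 and numpy 2.4.6, and figures drawn with matplotlib 3.10.9; the code was checked on simulated data. No test was run and no library was pooled. Depth was 16089966 to 20126802 counts. A gene of 1 TPM or more was taken as detected; the floor is the TPM of 3 counts. Exonic windows of 50 bases, taken every 10 bases, were searched on either strand in the transcripts of all other genes, and 20% was taken as shared. Promoter sequences are RefSeq's.

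The families, lists and members were chosen with earlier results of these data known. Named were the 20 highest genes, the 3 highest of each larger biotype, the 4 highest of each family, the highest of each role, members at 0 or under 0.1 TPM in all libraries, tissue markers, and the 20 most and 10 least variable genes, of which a selection is described. Other genes were chosen after their values were seen. Alternatives left out mitochondrial or short genes, used counts scaled to a common total (CPM), FPKM, other detection limits, no filter or each library left out in turn; the length of the longest transcript was added after seeing the data. Some members of the families are not reported here.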

Additional observations from a re-analysis of the deposited data

How the results depend on the processing

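Without mitochondrial genes, protein-coding genes held 63.6% of TPM, the 10 highest genes 36.9%, and 131 genes held 50%. Without genes under 200 bases, protein-coding genes held 89.7%, mitochondrial genes 25.1%, the 10 highest 27.8%, 217 genes held 50%, and the highest nuclear chromosome (chromosome 11) 9.19%. By counts scaled to a common total (CPM) these values were 93.1%, 10.2%, 12.6%, 752 genes and 8.96% (chromosome 11). By the length of the longest transcript, chosen after seeing the data, they were 70.3%, 16.5%, 37.3%, 80 genes and 16.9% (chromosome 16). These settings change the length or the genes summed by construction. The median SD between libraries was 0.05 on the log2 scale (0.0457) with no filter on TPM, and 0.115 to 0.196 with 1 library left out, lowest without nTg_24w_1. Rescaled FPKM gave the same shares. The leading member changed in 18 families by CPM and in 8 by the longest transcript, where Cck led the neuropeptide precursors, Gja1 the gap junction and water channels and Slc17a7 the transmitter genes; the leader's share moved by more than the SD between libraries in 48 and 36 families. Without nTg_24w_1 chromosome 7 held the highest nuclear share. No paired analysis was possible because no groups were compared. With 3 libraries of 2 ages, spread between animals, ages and batches cannot be told apart, and genes at 0 are not detectable at this depth rather than absent.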

Other observations

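Immunoglobulin genes, which plasma cells and B lymphocytes transcribe, were read in 1 library above the others. Of 427 immunoglobulin genes and pseudogenes listed, those with reads summed to 38.4, 308 and 20.2 TPM, from 256, 1736 and 281 counts in nTg_24w_1, nTg_24w_3 and nTg_15w_2. The kappa constant region Igkc stood at 4.01, 136 and 1.23 TPM and the alpha heavy chain constant region Igha at 0, 31.9 and 0 TPM, and 1 kappa variable gene, Igkv4-59 (0, 83.7 and 0 TPM), and 1 heavy chain variable gene, Ighv1-39 (0, 26.7 and 0 TPM), were counted in nTg_24w_3 alone. The mu constant region Ighm was level across the libraries (14.7, 12.9 and 15.3 TPM). The same library had the highest sum of the 5 blood markers, 862 TPM, against 612 TPM in nTg_24w_1 and 472 TPM in nTg_15w_2, and the part of blood in the immunoglobulin values was not tested.

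Choroid plexus and ependyma varied more between libraries than the neuronal lists. The 12 choroid plexus markers summed to 12601, 11790 and 9159 TPM and the 9 ependymal markers to 89.3, 80.7 and 58.7 TPM, whereas the 12 pyramidal cell markers summed to 1521, 1414 and 1494 TPM, the 12 granule cell markers to 283, 287 and 304 TPM and the 11 interneuron markers found to 1032, 1135 and 1168 TPM. The klotho gene Kl stood at 46.3, 26.1 and 22.3 TPM and the folate receptor Folr1 at 70.2, 51.2 and 31.3 TPM, each highest in nTg_24w_1. Endothelial and pericyte markers summed to 256, 248.95 and 181 TPM, and meningeal and fibroblast markers to 73.9, 76.2 and 58.4 TPM. Microglial markers summed to 498, 599 and 539 TPM, astrocyte markers to 2262, 2341 and 2118 TPM and oligodendrocyte markers to 2528, 2257 and 2119 TPM. The 12 markers of CA2 and CA3 pyramidal cells summed to 340.0, 373 and 361 TPM.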
